A study of Schizosaccharomyces pombe
Saccharomyces cerevisiae with 8 samples.

Results

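Ty elements are retrotransposons of budding yeast, Saccharomyces cerevisiae. Genes were taken as members where their deposited description names a retrotransposon with TYA or TYB and they lie more than 15000 bp from the lowest and highest gene positions of their chromosome. By this rule 1 of the 6741 genes in the newly synthesized RNA table and 1 of the 6605 in the total RNA table was a member, and it was the same gene, YIL082W. It is annotated as a TYA Gag gene. The tables held 0 members of the TYB class and 0 Ty genes nearer to a chromosome end, so the sum over TYA genes is the value of YIL082W and no sum over TYB genes exists. Other Ty copies were not analysed here.

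An RNA polymerase II promoter in a long terminal repeat drives a Ty element, and its transcript serves both as messenger RNA and as the genome copied by reverse transcriptase. TYA encodes Gag, the shell protein of the virus-like particle, and TYB encodes the Pol enzymes, made as a Gag-Pol fusion. Ty copies resemble each other closely, so reads of one copy can match another. The sources used here do not say how such reads were counted, and the counts of YIL082W may therefore include reads of other copies or miss its own.

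The groups were newly synthesized RNA after auxin, newly synthesized RNA after DMSO, total RNA after auxin and total RNA after DMSO, with 2 libraries each and 8 in all. Every library came from 1 strain of the alpha mating type (GZY364). It carried SUA7-3V5-IAA7-kanMX6 at the SUA7 locus and his3::pGPD1-OsTIR1-HIS3, in a background of ade2Δ::hisG, his3Δ200, leu2Δ0, lys2Δ0, met15Δ0, trp1Δ63 and ura3Δ0. Sua7 is the yeast general transcription factor TFIIB, needed by RNA polymerase II to start transcription. OsTIR1, driven by the GPD1 promoter, is a plant receptor that leads a protein with the IAA7 tag to degradation when auxin is present. Exposure to 500 µM auxin (3-indole acetic acid), or to DMSO as carrier, lasted 30 min. New RNA was then labelled over 6 min with 5 mM 4-thiouracil and purified as newly synthesized RNA (nsRNA below); total RNA came from such labelled cells too. No strain without the tag was given auxin, so an effect of auxin itself and the loss of Sua7 cannot be told apart.

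Listed counts per nsRNA library were 1291241 and 1753672 after auxin and 9496247 and 11779971 after DMSO. Total RNA libraries held 7010247 and 7181104 counts after auxin and 8275038 and 10543351 after DMSO. The alpha-cell genes MF(ALPHA)1 and STE3 had at least 5757 counts in each DMSO nsRNA library. SAG1, the other matched alpha-cell gene, had 1794 and 2297 there, while the a-cell genes BAR1 and AGA2 had at most 29. Of the markers looked for, 3 of 4 alpha-cell and 2 of 6 a-cell genes were matched by name. In bulk RNA, fewer cells and less RNA per cell cannot be told apart.

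YIL082W lies on chromosome IX from 205635 to 206507 in sacCer3 and is a protein-coding gene of 873 bases. Its annotated process is RNA-mediated transposition. The nearest listed gene to the left is YIL083C, with 981 bases between them, and to the right the isoleucine tRNA gene tI(AAU)I2, with 4157 bases between. In nsRNA its level per length was 3.57 ± 3.93 scaled counts per kb after auxin (SD, n = 2), against a median of 48.8 over 6365 protein-coding genes, of which 11.8% lay lower. In DMSO nsRNA it was 44.8 ± 9.33 scaled counts per kb (SD, n = 2), against a median of 852, and 14.5% of these genes had a lower level. In total RNA its level per length was 4.23 ± 1.77 scaled counts per kb after auxin (SD, n = 2), with 13.6% of 6230 protein-coding genes lower. In DMSO total RNA it was 5.71 ± 2.96 scaled counts per kb (SD, n = 2), with 9.31% of them lower. YIL082W was thus a weakly detected gene in both kinds of RNA.

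The first comparison asked how newly made YIL082W RNA changed after auxin. The nsRNA libraries held 8 and 1 counts of YIL082W after auxin, against 30 and 24 after DMSO. Scaled counts, meaning counts divided by the deposited factor of the library, were 5.55 and 0.691 after auxin and 44.8 and 33.3 after DMSO. Both auxin libraries lay below both DMSO libraries, and the group values were 3.12 ± 3.43 after auxin and 39.1 ± 8.14 after DMSO (SD, n = 2 each). The count of 1 in an auxin library is below the floor of 3 counts that a count of 0 allows.

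**Figure D1:**
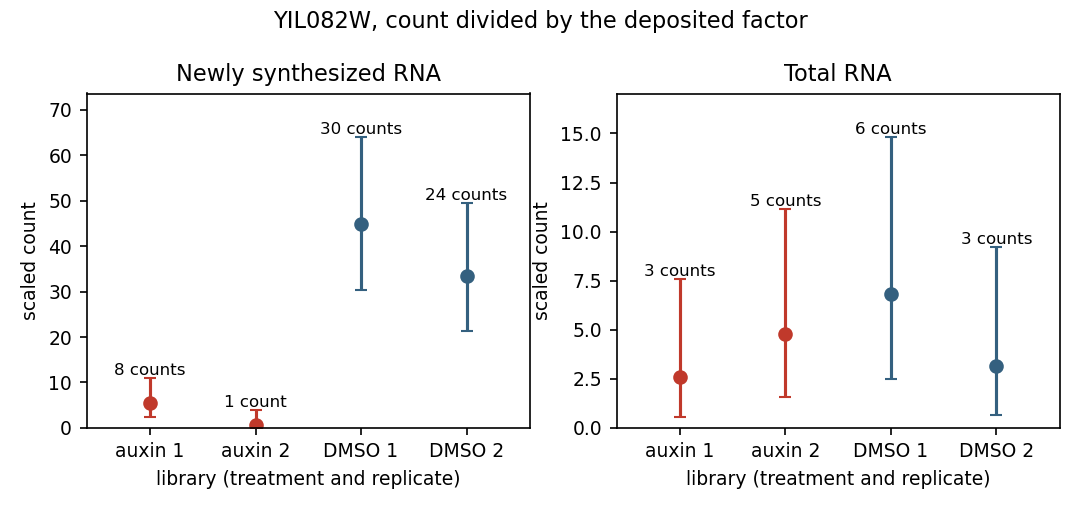
Scaled counts of YIL082W (vertical axis, count divided by the deposited library factor) in each library, with exact 95% Poisson intervals of the count as bars and the count printed above; auxin libraries in red and DMSO libraries in blue. The 2 panels have different vertical scales: in nsRNA the auxin libraries (5.55 and 0.691) lie below the DMSO libraries (44.8 and 33.3), while in total RNA the groups overlap.

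On the deposited scaling YIL082W fell in nsRNA with a log2 change of -3.60 (SE 0.51, edgeR quasi-likelihood test, Benjamini-Hochberg adjusted p = 1.34e-12). After auxin 8.01% of the DMSO level was left by the summed counts, with an exact 95% counting interval of 3.48 to 16.4%. A fall was the common outcome: 97.6% of the 5800 tested genes were called lower and 1.31% higher, and the median tested gene changed by -4.08 and kept 5.93%. The median lies inside the counting interval of YIL082W, and 78.3% of the tested genes had a more negative change. YIL082W passed the filter on low counts through its DMSO libraries alone, and its call is therefore given as a description. An exact two-sided permutation test of the 4 scaled counts gave p = 0.333, and no lower value is possible with 2 libraries in each group. In the authors' deposited table the log2 change of YIL082W in nsRNA is -3.40, with an adjusted p of 1.80e-04.

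The size of the fall depended on the 2 auxin libraries, which differed from each other. Without auxin replicate 1 the log2 change of YIL082W was -5.57, and without auxin replicate 2 it was -2.78 (edgeR adjusted p = 1.28e-08 and 3.08e-05), where the lone auxin library is assumed to vary like the DMSO libraries. The -5.57 rests on a count of 1, and the log2 ratio of that count to the summed DMSO counts has an exact 95% counting interval of -11.1 to -3.27. The direction depended on the deposited factors. With TMM, which sets the typical S. cerevisiae gene near 0, the log2 change of YIL082W was 0.35 (edgeR adjusted p = 0.702). As a share of the listed counts, in CPM, it made up 6.20 and 0.570 CPM after auxin and 3.16 and 2.04 CPM after DMSO. These shares overlapped, with the highest and the lowest both in auxin libraries (exact two-sided permutation p = 1).

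**Figure D2:**
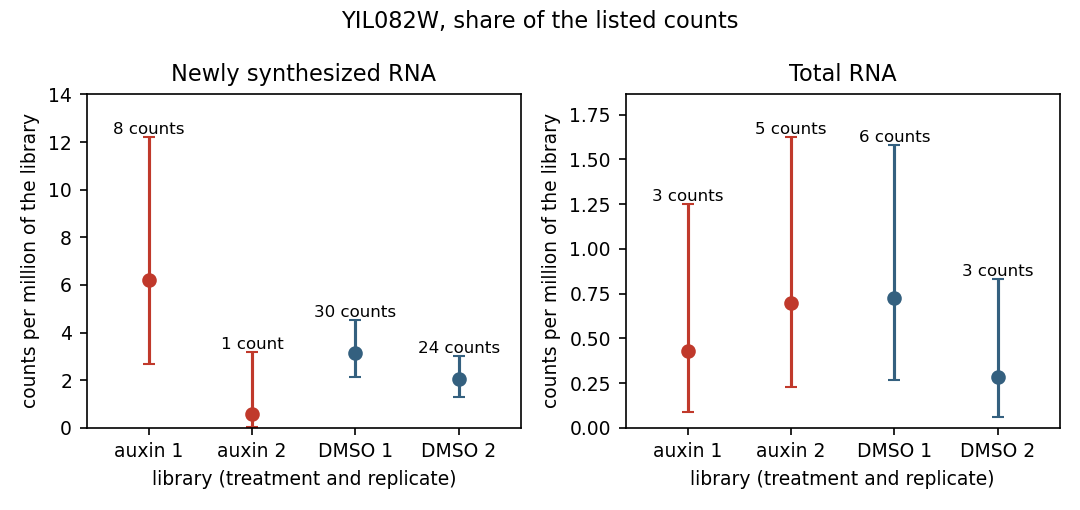
Share of YIL082W in the listed counts of each library (vertical axis, CPM), with exact 95% binomial intervals as bars and the count printed above; auxin in red, DMSO in blue. The auxin nsRNA libraries, at 6.20 and 0.570 CPM, lie on both sides of the DMSO libraries at 3.16 and 2.04; the 2 panels have different vertical scales.

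Genes beside YIL082W were read as a local comparison, taking the 3 nearest listed genes on each side. Of these 6 neighbours 5 were tested in nsRNA, and 5 were lower (97.6% of all tested genes were), with log2 changes from -4.02 to -3.39. The -3.60 of YIL082W lies within that range. With TMM the changes of these 5 neighbours ran from -0.03 to 0.60, and 2 were called higher (27.4% of all tested genes were). In total RNA 4 of the 5 were lower (90.3% of all tested genes were). The exception was THS1, which encodes threonyl-tRNA synthetase, at 0.01 (edgeR adjusted p = 0.955). With TMM the total RNA changes ran from -0.90 to 2.13, with 1 lower and 2 higher (42.0% and 33.4% of all tested genes were).

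The second comparison asked the same of YIL082W in total RNA. Its counts there were 3 and 5 after auxin, against 6 and 3 after DMSO. Scaled counts were 2.60 and 4.79 after auxin, with a mean of 3.70 ± 1.55, and 6.81 and 3.16 after DMSO, with a mean of 4.98 ± 2.58 (SD, n = 2 each). The groups overlapped, and the exact two-sided permutation p was 0.667. The gene did not pass the filter on low counts, so it was not among the 5479 genes tested. By the summed counts 74.2% of the DMSO level was left, with an exact 95% counting interval of 24.9 to 217%. With TMM the log2 ratio of means was 1.61, against -0.43 on the deposited scaling. A change of the size seen at the median tested gene, which kept 19.8%, lies just below this interval. The interval leaves out spread between replicates, so it does not set YIL082W apart from that gene. DESeq2 gave YIL082W a log2 change of -0.43 (SE 1.47), beside a median of -2.18 over the genes of that fit. Among all tested genes 90.3% were called lower in total RNA and 1.44% higher. Without the filter edgeR gave YIL082W a log2 change of -0.42 (SE 0.92, adjusted p = 0.674), and the authors' deposited table gives -0.33, with an adjusted p of 0.794. At 3 to 6 counts per library a change in either direction up to the bounds of the interval was not detectable. These bounds cover counting error only.

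As a share of the listed total RNA counts YIL082W made up 0.428 and 0.696 CPM after auxin and 0.725 and 0.285 CPM after DMSO. Its nsRNA shares after DMSO, 3.16 and 2.04 CPM, were higher than both of its total RNA shares after DMSO. After auxin 1 nsRNA share of YIL082W, 6.20 CPM, lay above the total RNA shares, and the other, 0.570, lay between them. The nsRNA and total RNA tables were scaled separately, so these shares were set side by side without a test.

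The difference between the nsRNA change and the total RNA change was fitted in all 8 libraries. For YIL082W it was -3.19 on the log2 scale (SE 1.05, edgeR adjusted p = 0.00396), the nsRNA change being the more negative of the pair. A difference of this sign was called at 77.7% of the 5910 tested genes and one of the opposite sign at 0.0338%. The median over all tested genes was -1.65, and 10.8% had a more negative difference. YIL082W passed the filter of this fit through its DMSO nsRNA libraries, so the call is again a description. The call of YIL082W ended without total RNA auxin replicate 2 (-2.72, edgeR adjusted p = 0.0803) and with TMM (-1.34, edgeR adjusted p = 0.338). Without nsRNA auxin replicate 1 the difference was -5.16, and without nsRNA auxin replicate 2 it was -2.37, the first of which rests on the count of 1.

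**Figure D3:**
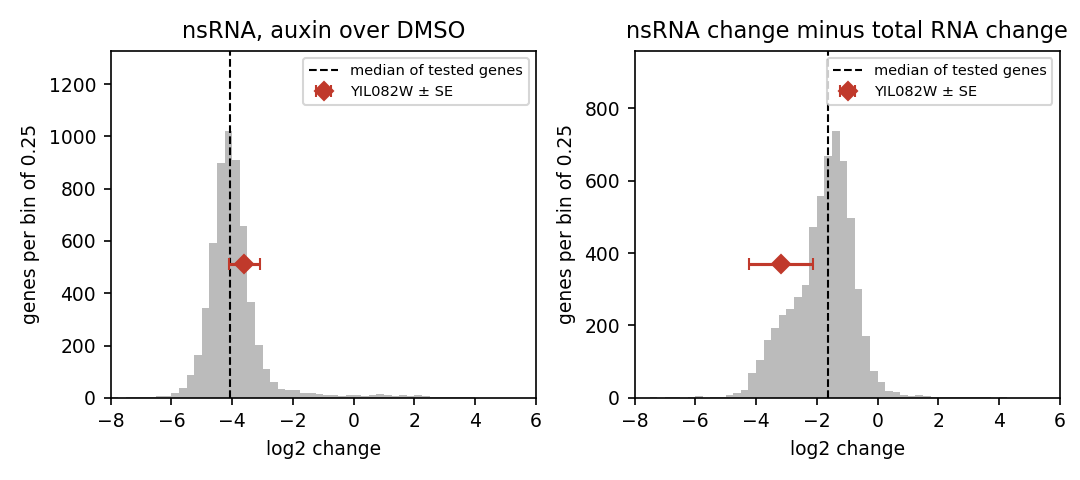
Distribution of log2 changes over all tested genes (grey, genes per bin of 0.25), for nsRNA after auxin over DMSO on the left and for the nsRNA change minus the total RNA change on the right, both on the deposited scaling; dashed lines mark the medians, -4.08 and -1.65. YIL082W (red diamond, bar of ± 1 SE, drawn at a height of no meaning) lies at -3.60 on the left, to the right of the median, and at -3.19 on the right, to the left of it.

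Host genes of the Ty life cycle were read beside YIL082W in 6 lists, of which 39 of 53 genes were matched by name. The lists were not limited to factors of the Ty family to which YIL082W belongs. On the deposited scaling all 39 were lower in nsRNA (97.6% of all tested genes were), and 36 were lower in total RNA with 0 higher (90.3% of all tested genes were lower). With TMM 14 of the 39 were lower and 12 higher in nsRNA; for total RNA these numbers were 19 and 13. Of all tested genes TMM called 29.5% lower and 27.4% higher in nsRNA. Its shares for total RNA were 42.0% lower and 33.4% higher, and the TMM counts of each list below stand beside these shares. The directions given for host genes below are on the deposited scaling, and those of named genes that turn with TMM are listed in the closing section.

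Genes for sequence-specific activators of Ty promoters were lower at 6 of 6 in nsRNA (median -4.34) and in total RNA (median -2.42), beside medians of -4.08 and -2.34 over all tested genes. With TMM 4 were lower and 0 higher in nsRNA, while total RNA split into 3 and 3 (medians -0.35 and -0.30). GCN4, the activator of amino acid synthesis genes, changed by -4.50 in nsRNA and -1.25 in total RNA. GCR1, the activator of glycolytic genes, changed by -4.72 and -1.73. The genes of the SWI/SNF chromatin remodeller were lower at 5 of 5 in nsRNA (median -3.71) and 4 of 5 in total RNA (median -2.30). With TMM 3 were higher and 2 lower in nsRNA, and in total RNA 2 went each way (medians 0.28 and -0.18). SNF2, its ATPase, changed by -3.63 in nsRNA and -1.48 in total RNA, and SWI3 by -4.21 and -2.70. The member that did not pass in total RNA was SWI1, at -0.08, named after its value was seen.

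The SPT genes, named for mutations that suppress the effects of Ty insertions, were lower at 8 of 8 in nsRNA (median -3.84) and 6 of 8 in total RNA (median -2.36). With TMM 3 were higher and 0 lower in nsRNA, against 3 higher and 4 lower in total RNA (medians 0.15 and -0.24). SPT6 and SPT16 encode histone chaperones of transcription elongation. Their nsRNA changed by -3.51 and -3.75, and neither passed in total RNA, at -0.13 and -0.16 (edgeR adjusted p = 0.611 and 0.507). With the replicate number as a block both passed in total RNA, at -0.13 and -0.17 (edgeR adjusted p = 0.0143 and 0.00173).

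RNA decay factors of processing bodies, where Ty RNA can be found, were lower at 6 of 6 in both kinds of RNA (medians -3.47 and -1.90). With TMM 5 were higher and 0 lower in nsRNA, and 3 higher and 1 lower in total RNA (medians 0.52 and 0.22). XRN1, the main cytoplasmic 5′ to 3′ exonuclease, changed by -3.90 in nsRNA and by -0.60 in total RNA (edgeR adjusted p = 0.0141), and the total RNA call ended in each of 4 fits that left out a library (adjusted p = 0.0555 to 0.305). DCP2, the decapping enzyme, changed by -3.36 and -2.06. The polymerase III factors at the tRNA genes beside which Ty elements insert were lower at 10 of 10 in both (medians -4.14 and -2.52), with RPC40 at -3.42 and -1.43 and TFC3 at -4.97 and -1.93. With TMM 4 passed as lower and 1 as higher in nsRNA, against 6 and 1 in total RNA (medians -0.15 and -0.40). RPC40 is a subunit shared by RNA polymerases I and III, and TFC3 a subunit of TFIIIC. The genes named as regulators of Ty1 transposition, with the debranching enzyme gene DBR1, were lower at 4 of 4 in both (medians -4.76 and -3.20). These medians cover only the 4 of 8 listed genes that were matched by name, and may differ from those of the full list. With TMM the medians of the matched genes were -0.77 and -1.08, with 4 lower in nsRNA, while in total RNA 3 were lower and 1 was higher. Among them RTT101, a cullin of a ubiquitin ligase, changed by -4.82 and -3.71, and RTT107, a DNA repair scaffold, by -4.39 and -1.33.

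**Figure D4:**
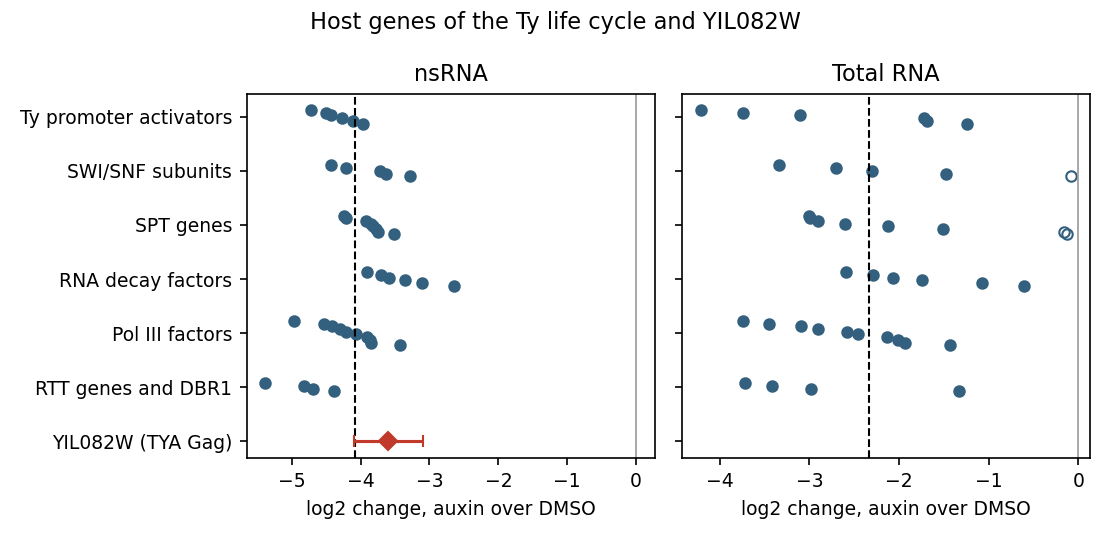
Log2 change after auxin over DMSO (horizontal axis, deposited scaling) of each matched gene in the 6 host lists, in nsRNA and total RNA; filled points passed the edgeR threshold, open points did not, the dashed lines mark the medians of all tested genes (-4.08 and -2.34) and the grey lines mark 0. YIL082W is the red diamond with ± 1 SE in nsRNA (-3.60) and has no point in total RNA, where it was not tested.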

How the data were processed

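RNA was measured by stranded, ribosome-depleted RNA-seq, per the labels' protocols, with S. pombe cells mixed in before extraction. Reads were processed with bcl2fastq 2.17.1.14 and build sacCer3, per the submitters' processing notes; no source used here names the aligner, the counter, the strand setting or the handling of reads that match several places. Each deposited table lists raw gene counts, per the file headers. Beside them stands a deposited signal, which equals the count divided by 1 factor per library (0.669 to 1.45), and that signal over transcript length in kb; no source used here says how the authors set the factors. Log2 changes and p-values of the authors, per the file headers, compare numbered groups, which were read here as auxin over DMSO.

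Counts were fitted across all genes with edgeR 4.0.16 in R 4.3.3 (quasi-likelihood test, library sizes proportional to the deposited factors, filterByExpr with a minimum count of 10, adjusted p under 0.05). The SE is the log2 change divided by the square root of the test's F statistic. Shares and counts carry exact Clopper-Pearson or Poisson intervals at 95%, from scipy 1.17.1, which cover counting error only. The planned sums over TYA and TYB genes came down to 1 gene. Host genes were matched by the deposited gene names alone. Named genes were YIL082W and the 2 genes of each host list with the highest mean scaled count. The members, lists and tests were chosen with earlier results of these data known. Alternatives included DESeq2 1.42.0, other scalings and filters, a replicate block and each library left out. The fits were tested on simulated data in which only some genes changed, each with an expected count of at least 50. That test does not speak to a gene with as few counts as YIL082W, or to a fall at most genes. The labels call the replicates biological without saying what was separate, so the p-values speak only to spread among these libraries, which may be technical; chi-square per degree of freedom within groups was 2.98 to 15.0, more than sampling noise.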

Additional observations from a re-analysis of the deposited data

Results flagged for a closer look

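The changes of YIL082W in nsRNA and in total RNA were set against each other in 1 fit, and the difference of -3.19 on the log2 scale passed its threshold (edgeR adjusted p = 0.00396). The counts were 8 and 1 after auxin against 30 and 24 after DMSO in nsRNA, and 3 and 5 against 6 and 3 in total RNA. YIL082W entered the fit through its DMSO nsRNA libraries alone, so the value is a description, and 77.7% of all tested genes were called with the same sign. The call ended with TMM (adjusted p = 0.338) and without total RNA auxin replicate 2 (adjusted p = 0.0803). No group had the 4 samples that the test for an outlying library needs.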

How the results depend on the processing

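For YIL082W in nsRNA the fall was called with DESeq2 (-3.65), without a filter (-3.60), with all 8 libraries (-3.60), with the replicate block (-3.64) and with each library left out (-5.57 to -2.78). With TMM and median-of-ratios scaling it was 0.35 and 0.39 without a call, so that 0 members were lower. The difference between nsRNA and total RNA was -1.34 with TMM and -1.55 with median-of-ratios scaling, neither called. It was -5.16 to -2.37 with each library left out, and -3.19 with a replicate block. A block joining the same-numbered nsRNA and total RNA libraries of each treatment, chosen after seeing the data, also gave -3.19. The labels do not say that such libraries share a culture. The total RNA value, a log2 ratio of mean scaled counts of -0.43, was 1.61 with TMM, 1.75 with median-of-ratios scaling, and -0.94 to 0.23 with each library left out. Without a filter edgeR gave -0.42 with the replicate block and -0.89 to 0.20 with each library left out, both chosen after seeing the data. With a mean count of at least 50 YIL082W gave no value, and keeping genes near chromosome ends added no member. No TYB value existed, and with only 1 member no Ty families could be set against each other. The family of YIL082W is not given here. Same-numbered auxin and DMSO libraries deviated together at -0.06 (nsRNA) and 0.07 (total RNA) across 5038 genes, and the labels give no shared culture or day, so the numbers were not taken to pair them. This check does not see a shift common to all genes: scaled totals were higher in replicate 2 of all 4 groups, by 1.13 to 1.35 times. With the block the total RNA fit called 5176 genes lower and 123 higher, against 4946 and 79 without it.

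For host genes the sign of the estimate turned positive in nsRNA with TMM and median-of-ratios scaling for XRN1 (0.075 and 0.12), DCP2 (0.63 and 0.68), SPT6 (0.47 and 0.51), SPT16 (0.23 and 0.27), SNF2 (0.36 and 0.40) and RPC40 (0.57 and 0.61). XRN1 was called under neither and the others under both. In total RNA the sign turned for XRN1 (1.52 and 1.67), DCP2 (0.060 and 0.20), SPT6 (1.99 and 2.14), SPT16 (1.96 and 2.10), SNF2 (0.65 and 0.79), RTT107 (0.78 and 0.93), RPC40 (0.68 and 0.83), TFC3 (0.20 and 0.35), GCN4 (0.88 and 1.02) and GCR1 (0.40 and 0.54), all called under both except DCP2 and TFC3, which were not called with TMM. The cause was not tested. These scalings moved the median of all tested genes to -0.07 and -0.02 in nsRNA and to -0.19 and -0.05 in total RNA. Over all tested genes 76 were higher in nsRNA and 79 in total RNA; these counts became 1601 and 1833 with TMM, 1737 and 2038 with median-of-ratios scaling, 123 and 169 without a filter, and 11 and 20 when genes needed a mean of 50 counts. DESeq2 called 35 higher in nsRNA, and 139 were higher in total RNA with all 8 libraries. Depth limits YIL082W too: its counts ran from 1 to 30.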

Other observations

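The deposited descriptions place 7 further reading frames in or opposite Ty long terminal repeats, a group chosen after its values were seen. Of these 2 passed the filter in nsRNA and 0 in total RNA. On the deposited scaling the 2 were lower in nsRNA (97.6% of all tested genes were). With TMM 0 were lower and 0 higher (median log2 change -0.55). The counts that follow are not scaled, and the auxin nsRNA libraries held fewer listed counts than the DMSO nsRNA libraries. YCR018C-A, which lies opposite a Ty1 repeat, had 1 and 5 nsRNA counts after auxin and 19 and 19 after DMSO. YER181C, which overlaps a Ty1 repeat over much of its length, had 1 and 2 nsRNA counts after auxin and 25 and 35 after DMSO. In total RNA YCR018C-A had 9 and 3 counts after auxin and 10 and 7 after DMSO, and YER181C had 1 and 1 after auxin and 6 and 15 after DMSO. The other 5 reading frames had at most 5 counts in any library.

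Descriptions of 35 genes besides YIL082W, also chosen after values were seen, name a role in Ty transposition or expression. Some of these genes, such as TEC1, RTT107 and RPC40, also stand in the host lists above, so this group is not a separate set. Of the 35 genes 33 were tested in nsRNA and 33 were lower (97.6% of all tested genes were), with a median log2 change of -4.01. In total RNA 32 of 33 were lower (90.3% of all tested genes were), with a median of -2.44. The exception was YML009W-B, a dubious reading frame whose deletion raises Ty1 transposition, at 0.01 in total RNA. With TMM 10 of the 33 were lower and 11 higher in nsRNA; for total RNA these numbers were 18 and 8. TMM called 29.5% of all tested genes lower and 27.4% higher in nsRNA, while in total RNA it called 42.0% lower and 33.4% higher.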
